A study of Brassica rapa subsp. pekinensis with 6 samples.

Results

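Flower buds of the female-sterile mutant *fsm* of Chinese cabbage contained a set of transcripts that were abundant in the mutant and scarce in its wild-type line ‘FT’. The set was chosen from deposited RPKM values, which are read counts per kilobase of coding length, scaled to the read total of the library. A gene was chosen when its mean over the 3 *fsm* libraries was at least 50 RPKM and its mean over the 3 ‘FT’ libraries was at most 1/16 of that value. Of 35616 genes with at least 1 read, 271 met both limits. A list of 18 genes was left out of the set, 9 of which met the limits, and the remaining 262 genes are described here. Because the rule used the difference between the lines, the difference in these 262 genes is a description and was not tested.

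‘FT’ is a doubled haploid line and sets seed. *fsm* was obtained from it by treating isolated microspores with the mutagen EMS, and its pistil abortion was reported to be inherited as a single recessive nuclear trait. Developing flower buds were taken at the full-bloom stage, buds of several plants of a line were mixed, and RNA-Seq was performed on libraries 1, 2 and 4 of ‘FT’ and libraries 1, 2 and 3 of *fsm*. The methods describe independent biological replicates but also state that RNA of the replicates was pooled before library construction, so the spread between libraries of a line may be technical. The mutated gene is not given in the sources used here, so the labels could not be checked on its transcript. No library could be assigned to a sequencing batch, so batch and line cannot be told apart.

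Heat shock proteins are molecular chaperones that bind unfolded or aggregating proteins. In plants their genes are switched on by heat stress transcription factors (HSFs), which respond when unfolded proteins accumulate. Class A factors such as HSFA2 activate transcription, whereas most class B factors act as repressors or coactivators. Small heat shock proteins hold unfolded proteins, HSP70 with its J-domain partners refolds them, and HSP101 dissolves aggregates. The same response overlaps with signalling by abscisic acid, ethylene, calcium and reactive oxygen species, and dehydration, wounding and other stresses induce many of the same genes. The sequences of these genes were not analysed here.

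The read total was about 2.5e+07 in each ‘FT’ library and 2.8e+07 to 2.9e+07 in the *fsm* libraries. The study reported a smaller share of clean reads mapped to the reference in every ‘FT’ library than in every *fsm* library. Its bearing on genes with few ‘FT’ reads was not tested. Across genes, log counts of libraries of the same line correlated with r of 0.997 in all 6 pairs, and those of different lines with r of 0.852 to 0.855 in 9 pairs. Among all 35616 genes tested with edgeR's quasi-likelihood test, 1038 genes, or 2.91%, were higher in *fsm* at an adjusted p of at most 0.001 and a log2 fold change of at least 4, and 835 genes, or 2.34%, were lower. All 262 chosen genes were among the 1038, which the rule all but fixes. In a bulk sample, fewer cells of a type and less RNA per cell cannot be told apart. As a marker list for pollen and pollen tubes, 8 genes of *VGD1*, polygalacturonase and arabinogalactan proteins were taken from those the study named for floral organ development among its differentially expressed genes. The choice as pollen markers was made here, and the genes were called on these samples. All 8 were lower in *fsm* at the same limits, and passing these limits, though not the direction, was all but fixed by that source. Further polygalacturonase and arabinogalactan protein genes, and the pectinesterases that the study also named, were not included. The shared direction of the 8 genes therefore does not extend to those families. The arabinogalactan protein gene *AGP2* (Bra038521), a chosen gene, was higher in *fsm* with a log2 ratio of 4.75. The summed level of the 8 genes was 3289 to 3320 RPKM in ‘FT’ and 156 to 182 RPKM in *fsm*. Their part in the differences described here was not tested.

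The chosen genes covered a wide range of levels. Their *fsm* means ran from 50.1 to 3277 RPKM with a median of 156 RPKM, and their ‘FT’ means ran from 0 to 70.02 RPKM with a median of 3.73 RPKM. In *fsm*, 83 genes lay between 50 and 100 RPKM, 80 between 100 and 200, 52 between 200 and 500, 28 between 500 and 1000, and 19 above 1000. The median log2 ratio of *fsm* over ‘FT’ among the 259 genes with reads in ‘FT’ was 5.37. Log2 ratios were between 4 and 5 in 107 genes, between 5 and 6 in 64, between 6 and 7 in 47, and at least 7 in the remaining genes with reads in ‘FT’, of which 10 exceeded 10.

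**Figure D1:**
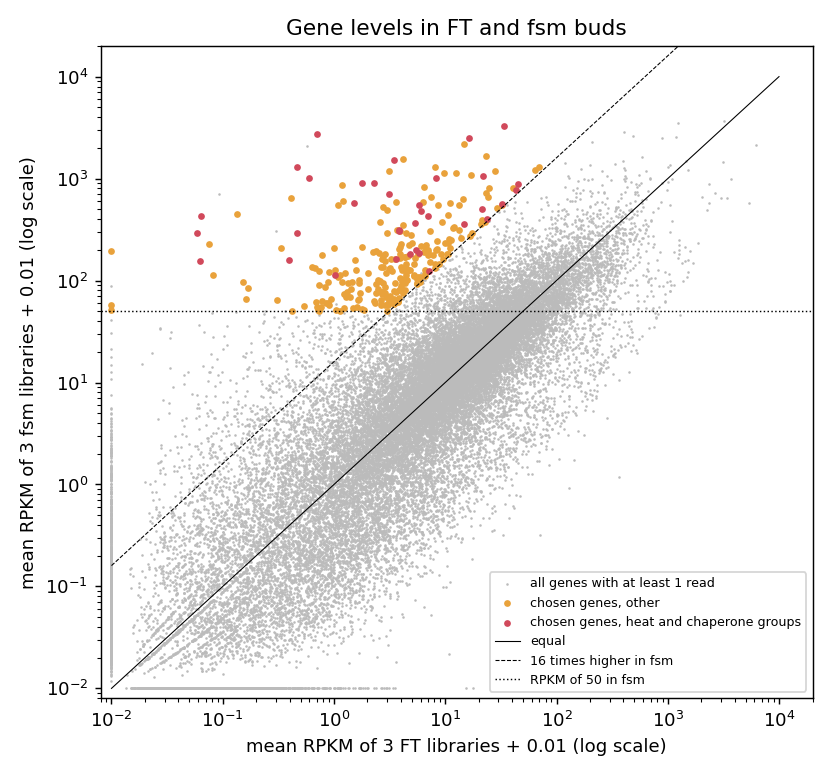
Mean RPKM of every gene in the 3 ‘FT’ libraries (x axis) and the 3 *fsm* libraries (y axis), both on log scales after adding 0.01. The 262 chosen genes (orange, and red for 35 heat and chaperone genes) lie above the dashed line of a 16-fold difference and the dotted line of 50 RPKM, whereas most genes lie near the line of equal levels.

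The rule's limits cut through a continuous range. Just inside the level limit were a calcium-binding protein gene, *CML40* (Bra000985), with 50.1 RPKM in *fsm* and 0.717 RPKM in ‘FT’, and Bra004644, of unknown function, with 50.1 and 0.411 RPKM. Just outside were Bra029019 with 49.8 RPKM and Bra010472, described as an oxidoreductase, with 48.7 RPKM in *fsm*. At the ratio limit, Bra024662 and Bra037811, both 16.2-fold higher in *fsm*, were just inside. Bra004435 with a ratio of 15.99 and Bra016937, an embryo-abundant protein-related gene, with a ratio of 15.94 were just outside.

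Some of these genes ranked among the most abundant transcripts of *fsm* buds, and their ranks and read shares follow in part from the rule. Of the 20 genes with the highest mean RPKM in *fsm*, 7 were chosen genes, and 29 of the top 100 and 130 of the top 1000 were. None of the 262 was among the top 1000 in ‘FT’, where their best rank was 2767. The median rank was 1007.5 in *fsm* and 21240 in ‘FT’, and the worst rank in *fsm* was 4301. Together they took 0.166%, 0.164% and 0.170% of all reads in ‘FT’ libraries 1, 2 and 4, and 7.98%, 7.93% and 8.09% in *fsm* libraries 1, 2 and 3. The means were 0.167% ± 0.00289 (SD, n = 3) and 8.002% ± 0.0808 (SD, n = 3).

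Libraries of a line were close to each other. In each of the 262 genes the lowest *fsm* library was above the highest ‘FT’ library, and the smallest such ratio was 12.6. Across all genes, every *fsm* library was above every ‘FT’ library in 37.5% of the genes tested, on counts normalized to library size, and the count in the chosen genes follows from the rule. The median coefficient of variation among *fsm* libraries was 5.10% in the chosen genes and 5.05% in the 4046 other genes with at least 50 RPKM in *fsm*, and the highest in a chosen gene was 16.2%. Library 1 was the highest *fsm* library in 135 genes, library 3 in 87 and library 2 in 40. Reads covered a median of 99.5% of the coding length in *fsm* and 96.3% in ‘FT’, and 238 genes were covered to at least 90% in each *fsm* library. Their median coding length was 769.5 bases, against 843 bases in the other genes with at least 50 RPKM in *fsm*.

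By their descriptions, 112 chosen genes were placed in 13 groups of roles, 33 had another description, and 117 had no described function. The descriptions come from the study's table of differentially expressed genes, which was itself chosen on these samples. HSFs, small heat shock proteins, larger chaperones and co-chaperones numbered 35 genes and took 3.06%, 3.07% and 3.11% of all *fsm* reads, against 0.0484%, 0.0468% and 0.0472% of ‘FT’ reads. They held 38.5% of the *fsm* reads in the chosen genes. The 18 genes left out of the set included 1 further HSF and 4 further heat shock protein genes, whose reads are not in these shares. The median log2 ratio was 6.56 in the 35 genes and 5.28 in the other 227 genes, a difference that is described and not tested. The second median leaves out 3 genes with 0 reads in ‘FT’, which have no log2 ratio.

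**Figure D2:**
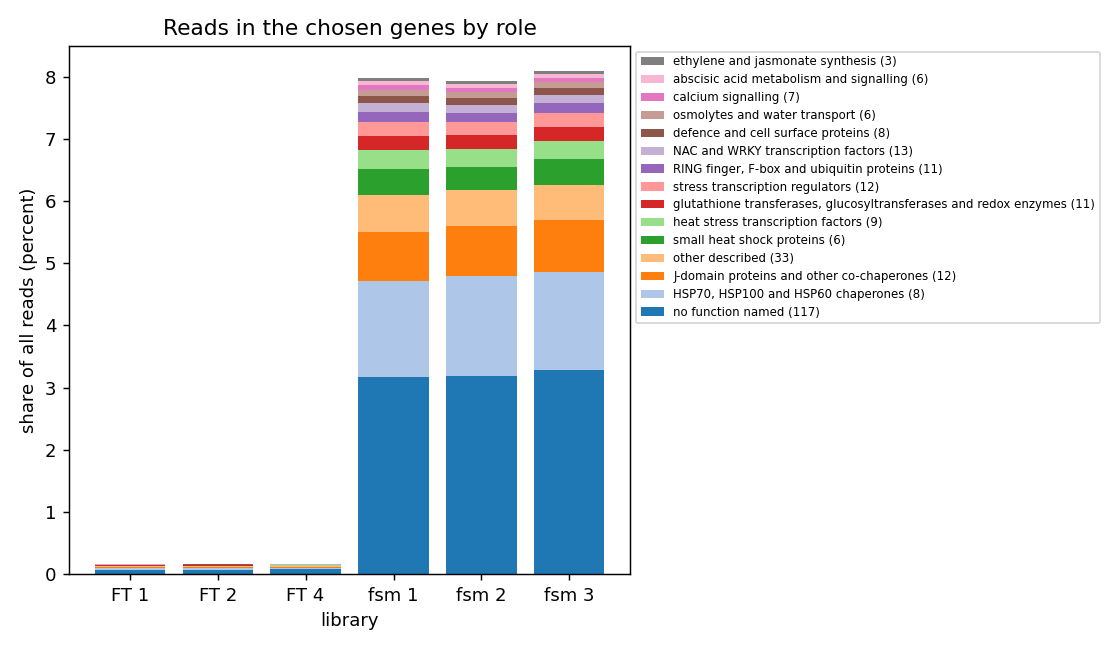
Share of all reads in the chosen genes in each of the 6 libraries, in percent, stacked by role group with the number of genes of each group. The ‘FT’ bars reach 0.164% to 0.170% and the *fsm* bars 7.93% to 8.09%, of which genes with no described function make up the largest block at 3.21% on average.

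Values by library are given below in the order 1, 2 and 4 for ‘FT’ and 1, 2 and 3 for *fsm*, and the groups follow their roles.

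All 9 HSF genes were low in every ‘FT’ library and high in every *fsm* library, with *fsm* means of 156 to 1014 RPKM. *HSFA2* (Bra000557), a class A activator known for prolonging heat tolerance in *Arabidopsis*, had 0.414, 0.762 and 0.573 RPKM in ‘FT’ and 1004, 1003 and 1033 RPKM in *fsm*. The 2 *HSFA7A* genes, another class A factor, were almost without reads in ‘FT’. Bra012829 had 0.0527, 0.107 and 0 RPKM in ‘FT’ and 423, 423 and 457 RPKM in *fsm*. Bra012828 had 0, 0.0985 and 0.0494 RPKM in ‘FT’ and 295, 282 and 300.4 RPKM in *fsm*. Each had 3 reads in the ‘FT’ libraries together. The ratio of read shares was 8153 for Bra012829 (exact 95% interval 2790 to 39537) and 5964 for Bra012828 (exact 95% interval 2040 to 28920). These intervals pool the libraries of a line, cover counting error only and ignore that the rule chose the genes on this difference.

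Class B factors were in the same position. *HSFB2A* was represented by 3 genes. Bra010049 had 3.59, 4.61 and 3.39 RPKM in ‘FT’ and 342, 289 and 299.5 RPKM in *fsm*. Bra029291 had 0.491, 0.199 and 0.450 RPKM in ‘FT’ and 170.5, 143 and 162 RPKM in *fsm*, and Bra029292 had 0.0513, 0 and 0.104 RPKM in ‘FT’ and 169, 142 and 156 RPKM in *fsm*. The 3 genes differed far more in ‘FT’, where Bra010049 alone exceeded 1 RPKM, than in *fsm*. Bra029292 had 3 reads in ‘FT’ in all and a ratio of 3015 (exact 95% interval 1031 to 14620). *HSFB2B* (Bra000749) had 5.34, 6.46 and 5.68 RPKM in ‘FT’ and 194, 178 and 185 RPKM in *fsm*. The genes described as heat shock factor 4 were Bra011735, with 6.56, 4.74 and 6.67 RPKM in ‘FT’ and 480.2, 469 and 494 RPKM in *fsm*, and Bra017800, with 5.26, 4.89 and 4.22 RPKM in ‘FT’ and 175, 176 and 194 RPKM in *fsm*. The HSF pairs Bra012828 with Bra012829 and Bra029291 with Bra029292 carry the same names, and how reads shared by near-identical copies were counted was not tested, so the split between them is uncertain.

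Small heat shock proteins included the most abundant chosen gene. Bra018383, encoding a class I protein, had 36.0, 32.1 and 34.1 RPKM in ‘FT’ and 3351, 3145 and 3336 RPKM in *fsm* and held rank 3 among all genes in *fsm*. The class II genes were rarer still in ‘FT’. Bra006137 had 0.558, 0.566 and 0.946 RPKM in ‘FT’ and 2862, 2542 and 2813 RPKM in *fsm*. Bra023360 had 0.931, 0.257 and 0.172 RPKM in ‘FT’ and 1417, 1186 and 1312 RPKM in *fsm*. Bra008920 had 1.52, 0.858 and 2.15 RPKM in ‘FT’ and 597, 529.8 and 609.7 RPKM in *fsm*, so that each of the 3 class II genes was at or below 2.15 RPKM in every ‘FT’ library and above 500 RPKM in every *fsm* library. *HSP22.0* (Bra000703) had 7.29, 5.24 and 8.29 RPKM in ‘FT’ and 459.9, 389 and 436 RPKM in *fsm*. The chloroplast small heat shock protein gene (Bra026317) had 0.467, 0.473 and 0.415 RPKM in ‘FT’ and 292, 269 and 309.6 RPKM in *fsm*. The 6 genes had log2 ratios of 5.95 to 11.95 with a median of 8.95.

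Among the larger chaperones, *HSP70* (Bra038734), an ATP-driven folding chaperone, had 16.2, 16.6 and 16.5 RPKM in ‘FT’ and 2502, 2521 and 2507 RPKM in *fsm*. It held the most *fsm* reads of any chosen gene. Of 2 genes described as heat shock cognate 70, Bra001457 had 3.59, 3.02 and 3.78 RPKM in ‘FT’ and 1494, 1515 and 1576 RPKM in *fsm*, and Bra035470 had 34.4, 30.7 and 32.7 RPKM in ‘FT’ and 566, 559 and 569.7 RPKM in *fsm*. The first was thus lower than the second in ‘FT’ and higher in *fsm*. *HSP101*, the disaggregase needed for acquired heat tolerance in *Arabidopsis*, was also present as 2 genes. Bra015922 had 2.13, 2.27 and 2.38 RPKM in ‘FT’ and 884, 939 and 875 RPKM in *fsm*, and Bra003807 had 3.18, 3.10 and 2.99 RPKM in ‘FT’ and 671, 738 and 706 RPKM in *fsm*. The chaperonin 60 gene (Bra001507), the chloroplast *cpHsc70-1* (Bra013786) and the chloroplast disaggregase *CLPB3* (Bra008698) had log2 ratios of 4.55, 4.08 and 4.59. Their ‘FT’ levels were above those of both *HSP101* genes. The 8 genes of this group had ‘FT’ means of 2.26 to 32.6 RPKM.

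**Figure D3:**
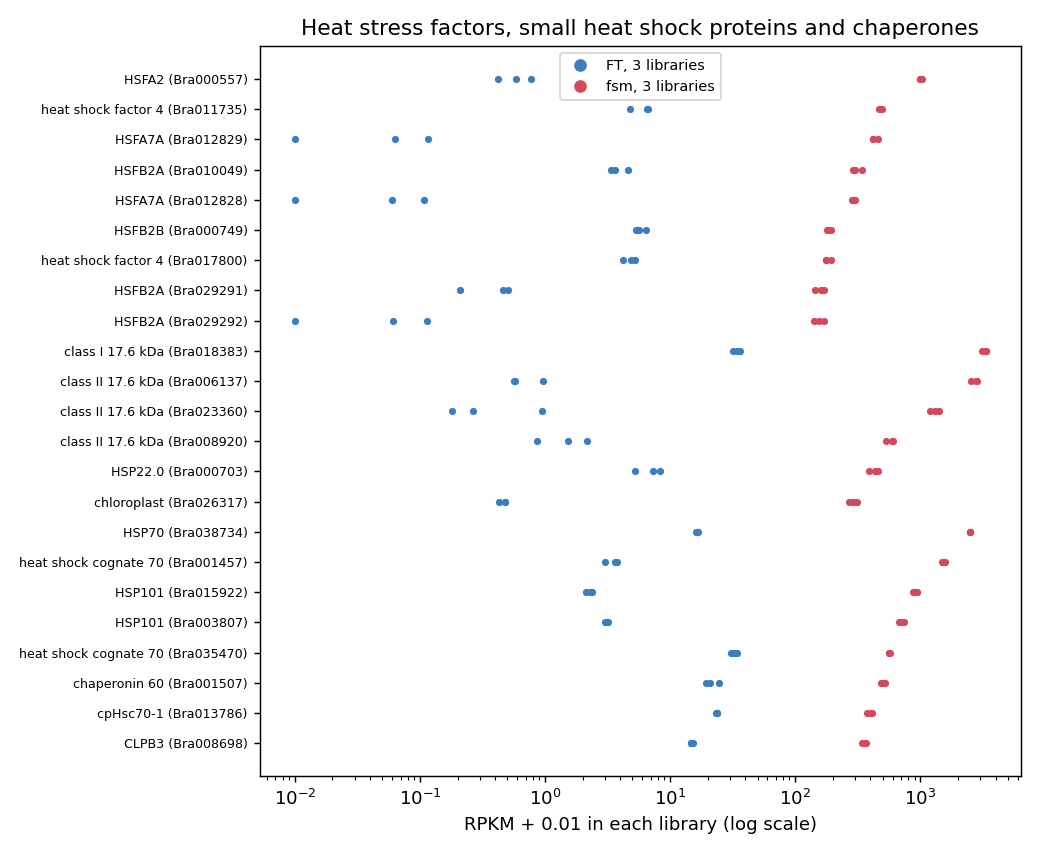
RPKM in each library, on a log scale after adding 0.01, of the 9 HSF genes, 6 small heat shock protein genes and 8 larger chaperone genes that were chosen; blue points are the 3 ‘FT’ libraries and red points the 3 *fsm* libraries. Red and blue points do not overlap in any gene, and the log2 ratios are largest for both *HSFA7A* genes, the class II genes Bra006137 and Bra023360, and *HSFB2A* Bra029292.

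Co-chaperones numbered 12 genes with a median log2 ratio of 5.84. *BAG6* (Bra004553), of the BAG family of HSP70-binding proteins, had 21.9, 22.2 and 21.1 RPKM in ‘FT’ and 982, 1080.0 and 1095 RPKM in *fsm*. The gene described as STI1-like (Bra018477), whose relatives link HSP70 to HSP90, had 9.12, 7.73 and 7.66 RPKM in ‘FT’ and 972, 1034 and 1044 RPKM in *fsm*. The J-domain gene Bra031127, whose product would be an HSP70 partner, had 2.05, 1.88 and 1.38 RPKM in ‘FT’ and 924, 877 and 912 RPKM in *fsm* and the largest ratio of the group, 8.996 on the log2 scale. These 3 genes were each near 1000 RPKM in *fsm* while their ‘FT’ levels differed over 10-fold. A peptidylprolyl isomerase gene (Bra037477) had 44.7, 44.6 and 45.0 RPKM in ‘FT’ and 852, 892 and 881 RPKM in *fsm*, and an SGS domain gene (Bra032356) had 41.7, 45.0 and 42.3 RPKM in ‘FT’ and 844, 729.8 and 763 RPKM in *fsm*. The isomerase and SGS domain genes were the best expressed in ‘FT’ of this group.

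Outside the chaperones, transcription regulators of stress responses formed a group of 12. *MBF1C* (Bra015048), a coactivator needed for heat tolerance in *Arabidopsis*, had 10.6, 8.62 and 9.81 RPKM in ‘FT’ and 1156, 1075 and 1158 RPKM in *fsm*. *DREB2A*, which binds the dehydration-responsive element and activates drought and heat genes, had 2 chosen copies. Bra009112 had 13.4, 14.8 and 15.2 RPKM in ‘FT’ and 602, 637 and 634 RPKM in *fsm*, and Bra028759 had 0.943, 1.04 and 0.785 RPKM in ‘FT’ and 70.1, 60.4 and 67.1 RPKM in *fsm*. An ethylene-responsive element binding gene (Bra010880) and 2 genes of the homeobox factor *ATHB-12* (Bra007637 and Bra014417) completed the 5 most abundant, with *fsm* means of 292, 178 and 176 RPKM. The 2 *ATHB-12* genes had near-equal levels in *fsm* but ‘FT’ means of 0.764 and 7.76 RPKM.

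WRKY and NAC transcription factors, plant-specific families with many members in defence and senescence, gave 13 chosen genes with *fsm* means of 65.3 to 186 RPKM. *WRKY53* (Bra013732) had 2.36, 2.18 and 3.07 RPKM in ‘FT’ and 193, 190.3 and 174 RPKM in *fsm*, and *WRKY40* (Bra008435) had 0.902, 1.92 and 1.74 RPKM in ‘FT’ and 163, 156 and 161 RPKM in *fsm*. Both of these are known as regulators of senescence or defence in *Arabidopsis*. The NAC genes Bra029201, Bra038663 and Bra008309 had *fsm* means of 167, 119 and 116 RPKM and log2 ratios of 4.97, 5.90 and 4.13. In all 3, library 1 was the highest *fsm* library.

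Hormone genes numbered 6 for abscisic acid and 3 for ethylene and jasmonate synthesis. The median *fsm* means of these groups were 76.0 and 120 RPKM. Of abscisic acid metabolism, 2 genes of *NCED3*, the rate-limiting enzyme of its synthesis, were chosen. Bra027336 had 2.48, 2.16 and 3.21 RPKM in ‘FT’ and 88.2, 76.1 and 67.0 RPKM in *fsm*, and Bra021558 had 1.16, 0.954 and 1.54 RPKM in ‘FT’ and 58.6, 53.9 and 47.0 RPKM in *fsm*. A gene of *CYP707A4* (Bra022407), which breaks abscisic acid down, had 2.34, 2.05 and 2.73 RPKM in ‘FT’ and 76.1, 76.5 and 72.3 RPKM in *fsm*. Genes for synthesis and for breakdown were thus both in the set. Of the protein phosphatases 2C, a family with negative regulators of abscisic acid signalling, Bra007669, Bra015579 and Bra031574 had *fsm* means of 119.8, 94.6 and 50.5 RPKM. Of ethylene synthesis, the ACC synthase gene (Bra035236) had 6.55, 7.12 and 7.12 RPKM in ‘FT’ and 194, 171 and 165 RPKM in *fsm*, and the ACC oxidase gene (Bra031798) had 5.66, 5.33 and 6.01 RPKM in ‘FT’ and 104, 101 and 121 RPKM in *fsm*. These enzymes catalyse the last 2 steps of ethylene synthesis. The allene oxide cyclase gene (Bra017350), of jasmonate synthesis, had 3.93, 4.24 and 5.09 RPKM in ‘FT’ and 114, 121 and 125 RPKM in *fsm*.

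The 7 calcium signalling genes had ‘FT’ means of 0.160 to 7.34 RPKM. A putative calmodulin gene (Bra015727) had 5.70, 9.13 and 7.18 RPKM in ‘FT’ and 319, 298 and 301 RPKM in *fsm*, and *CML44* (Bra017927) had 0.0924, 0.749 and 1.03 RPKM in ‘FT’ and 139.6, 135 and 134 RPKM in *fsm*. The kinase gene *CIPK2* (Bra009294), which acts with calcium sensors of the CBL family, had 0.149, 0.211 and 0.121 RPKM in ‘FT’ and 84.6, 86.9 and 82.2 RPKM in *fsm* and the largest log2 ratio of the group, 9.04. Another putative calmodulin gene (Bra027981) and a calcium-dependent protein kinase gene (Bra007334) had *fsm* means of 121 and 176 RPKM. All 7 calcium genes had log2 ratios of at least 5.38.

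Osmolyte and water transport genes included 2 galactinol synthases, the first enzymes of raffinose synthesis. Bra004474 had 0.116, 0 and 0.0787 RPKM in ‘FT’ and 247, 215 and 225 RPKM in *fsm*, whereas Bra021388 had 1.11, 1.43 and 1.21 RPKM in ‘FT’ and 119, 115 and 120.0 RPKM in *fsm*. The 3 plasma membrane aquaporins, which conduct water, were Bra005216, Bra005215 and Bra023103, with *fsm* means of 277, 193 and 144 RPKM. Reads covered a mean of 76.1% of the coding length of Bra005215 and 83.7% of that of Bra005216 in *fsm*, and the split of reads between these consecutively numbered genes is uncertain. The polyol transporter gene *PLT5* (Bra037555) was the lowest of the 6 in *fsm* at 91.7 RPKM and had the smallest log2 ratio, 4.04.

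Redox and conjugation enzymes gave 11 chosen genes. *AOX1A* (Bra031351), the alternative oxidase that bypasses part of the mitochondrial electron chain, had 9.67, 7.88 and 8.46 RPKM in ‘FT’ and 587, 527 and 551 RPKM in *fsm*. A gene described as glutathione S-transferase 2 (Bra018543), of a family that conjugates glutathione to reactive compounds, had 34.0, 33.9 and 29.4 RPKM in ‘FT’ and 554, 561 and 549 RPKM in *fsm*. The catalase gene (Bra034674), which breaks down hydrogen peroxide, had 14.6, 12.0 and 13.1 RPKM in ‘FT’ and 314, 319 and 308 RPKM in *fsm*. These 3 were the most abundant of the group, and the glutathione S-transferases Bra039982 and Bra000875 followed with *fsm* means of 184 and 182 RPKM.

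RING finger, F-box and ubiquitin genes, mostly parts of the machinery that marks proteins for degradation, numbered 11. The RING finger gene Bra019672 had 11.6, 11.4 and 14.5 RPKM in ‘FT’ and 1276, 993 and 1099 RPKM in *fsm*, with library 1 the highest. The next 4, Bra024929, Bra037109 and the 2 *RHA2B* genes Bra017465 and Bra024902, had *fsm* means of 183 to 234 RPKM. Bra019672 stood apart from them in *fsm* but not in ‘FT’, where it had 12.5 RPKM and Bra024902 had 10.3 RPKM.

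Of the 8 defence and cell surface genes, a lipid transfer protein gene (Bra020322) had 25.2, 27.2 and 31.5 RPKM in ‘FT’ and 1326, 1087 and 1170.5 RPKM in *fsm*. A glycine-rich protein gene (Bra024533) had 1.30, 0.808 and 1.47 RPKM in ‘FT’ and 591, 592 and 640.2 RPKM in *fsm* and a log2 ratio of 8.99. *PR4* (Bra001122), a chitin-binding pathogenesis-related protein, had 1.40, 3.58 and 3.12 RPKM in ‘FT’ and 175, 154 and 153 RPKM in *fsm*. A lipid transfer family gene (Bra002914) and the arabinogalactan protein gene *AGP2* (Bra038521) had *fsm* means of 392 and 107 RPKM. *AGP2* is not among the 8 pollen genes above and differed in the opposite direction.

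Genes with no described function were among the most abundant of the set. Bra029811 had 14.5, 16.6 and 13.0 RPKM in ‘FT’ and 2085, 2165 and 2271 RPKM in *fsm*, Bra027920 had 19.7, 20.1 and 29.4 RPKM in ‘FT’ and 1387, 1767 and 1837 RPKM in *fsm*, and Bra016644 had 4.01, 4.35 and 4.18 RPKM in ‘FT’ and 1479, 1597 and 1616 RPKM in *fsm*. Bra026084 and Bra000474 followed with *fsm* means of 1314 and 1297 RPKM. Bra027920 was lower in *fsm* library 1 than in the other 2 *fsm* libraries, and it had the highest level of its ‘FT’ libraries in library 4. The 117 genes of this kind took 3.21% ± 0.0623 (SD, n = 3) of all *fsm* reads and 0.0736% ± 0.00288 (SD, n = 3) of ‘FT’ reads.

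In 3 chosen genes no read was counted in any ‘FT’ library. Bra018972, a hypothetical protein, had 195, 180.0 and 209.6 RPKM in *fsm*, Bra005623, of unknown function, had 55.4, 46.2 and 52.5 RPKM, and the basic helix-loop-helix gene Bra027501, of a family of transcription factors, had 57.7, 65.0 and 51.5 RPKM. Taking a floor of 3 reads over the ‘FT’ libraries together, their *fsm* means were at least 2825-fold, 380-fold and 1078-fold higher. At the other end, 251 of the 262 genes had reads in each of the ‘FT’ libraries.

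Where genes shared a name, their ratio could be compared within a library, per length. A shared name can be a family description, as for J-domain, RING finger and F-box genes. Each was set against the gene of that name with the highest *fsm* level. The ratio of *fsm* means was thus at least 1 by construction, and comparisons that share a gene are not independent. In 10 of 29 such comparisons the order of the mean RPKM differed between the lines. The ratio of the *HSP101* genes, Bra015922 over Bra003807, was 0.670, 0.733 and 0.797 in ‘FT’ libraries 1, 2 and 4 and 1.32, 1.27 and 1.24 in *fsm* libraries 1, 2 and 3, so the order of the copies was reversed between the lines. The ratio of Bra001457 over Bra035470, the heat shock cognate 70 genes, was 0.106 from the ‘FT’ means and 2.71 from the *fsm* means. Class II genes Bra006137 and Bra008920 had a ratio of 0.457 in ‘FT’ and 4.73 in *fsm*. The J-domain gene Bra031127 had a ratio over Bra021539 of 0.330 in ‘FT’ and 2.48 in *fsm*, and its order was also reversed against Bra029736 and Bra027363. The galactinol synthase genes Bra004474 and Bra021388 had a ratio of 0.0520 and 1.94.

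The F-box genes Bra031435 and Bra029548 had a ratio of 0.839 in ‘FT’ and 2.13 in *fsm*, and the *RHA2B* genes Bra017465 and Bra024902 of 0.798 and 1.10. The *ATHB-12* genes Bra007637 and Bra014417, the last of the 10, had a ratio near 1 in *fsm*, at 0.969, 1.04 and 1.02 in libraries 1, 2 and 3. Their order in *fsm* was thus not the same in every library. In the other 19 comparisons the order of the means was the same in both lines, though not always in each ‘FT’ library. The ratio of Bra006137 over Bra023360 was 0.600 in ‘FT’ library 1. That of Bra011735 over Bra017800 was 0.970 in library 2, and that of Bra012829 over Bra012828 was 0 in library 4. From the means, the *DREB2A* genes Bra009112 and Bra028759 had a ratio of 15.7 in ‘FT’ and 9.48 in *fsm*, and the *NCED3* genes Bra027336 and Bra021558 of 2.15 and 1.45. The *WRKY53* genes Bra013732 and Bra019265 had 1.98 and 2.68. These ratios rest on few ‘FT’ reads in several pairs and were not tested, because both members were chosen for their low ‘FT’ level.

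**Figure D4:**
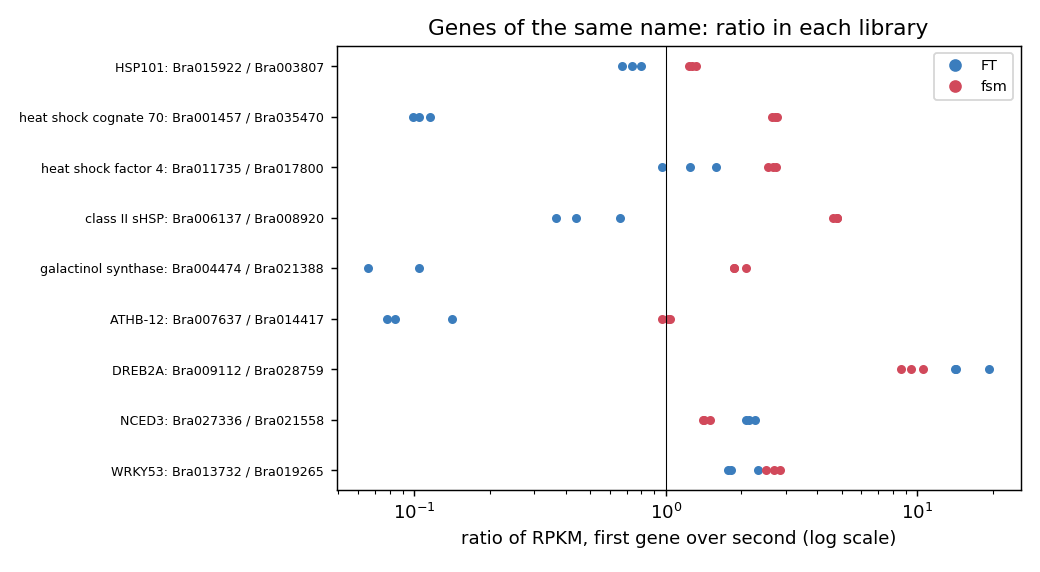
Ratio of RPKM between chosen genes of the same name in each library, on a log scale, with ‘FT’ libraries in blue and *fsm* libraries in red; a library with 0 reads of the first gene is not drawn. The line marks equal levels, which *HSP101*, heat shock cognate 70, class II small heat shock protein (sHSP) and galactinol synthase pairs cross between the lines, whereas the *DREB2A*, *NCED3* and *WRKY53* pairs lie above it in every library.

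Genes of the same processes that the rule did not choose were tested. Lists for 2 processes were taken by annotation from the 1116 genes shown in the study's table of detected genes, which hold the most reads in ‘FT’ library 1, so they describe genes that are abundant in the wild type. None of their members was chosen. The call was an adjusted p of at most 0.001 and a log2 fold change of at least 1, which 18.7% of all genes passed upward and 18.0% downward.

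Of 11 genes annotated to the response to heat or to protein folding, 4 were higher in *fsm* and 1 was lower, and the median log2 fold change was 0.32 against -0.02 over all genes tested. The largest increase was in Bra015779, annotated to heat, cold and water deprivation, with 459, 483 and 509 RPKM in ‘FT’ and 2724, 2401 and 2667 RPKM in *fsm* and a log2 fold change of 2.498 (SE 0.0603, adjusted p = 9.73e-34, edgeR). The others that passed upward were Bra028952 (log2 fold change 1.79), Bra001934 (1.47) and Bra028948 (1.13), and Bra000265 fell by 1.45. The smallest difference was in Bra027469, with 573, 597 and 627 RPKM in ‘FT’ and 561, 489 and 537 RPKM in *fsm* and a log2 fold change of -0.11 (SE 0.0623, adjusted p = 0.12, edgeR). The libraries of the 2 lines did not overlap in Bra015779, and in Bra027469 the highest *fsm* library, library 1, lay just below the lowest ‘FT’ library, library 1.

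Of 19 genes annotated to water deprivation or abscisic acid, 1 was higher in *fsm*, Bra015779 again, and 7 were lower. The median log2 fold change was 0.02. The largest decrease was in Bra030375, with 116, 117 and 118 RPKM in ‘FT’ and 5.93, 7.26 and 6.49 RPKM in *fsm* and a log2 fold change of -4.09 (SE 0.0751, adjusted p = 4.74e-38, edgeR). Bra040960 and Bra008230 fell by 3.79 and 3.71 on the log2 scale. The smallest difference was in Bra027209, with a log2 fold change of 0.02 (SE 0.0610, adjusted p = 0.74, edgeR). Most called members of this list thus differed in the opposite direction to the chosen genes, but list membership required many reads in an ‘FT’ library, which the chosen genes lacked.

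**Figure D5:**
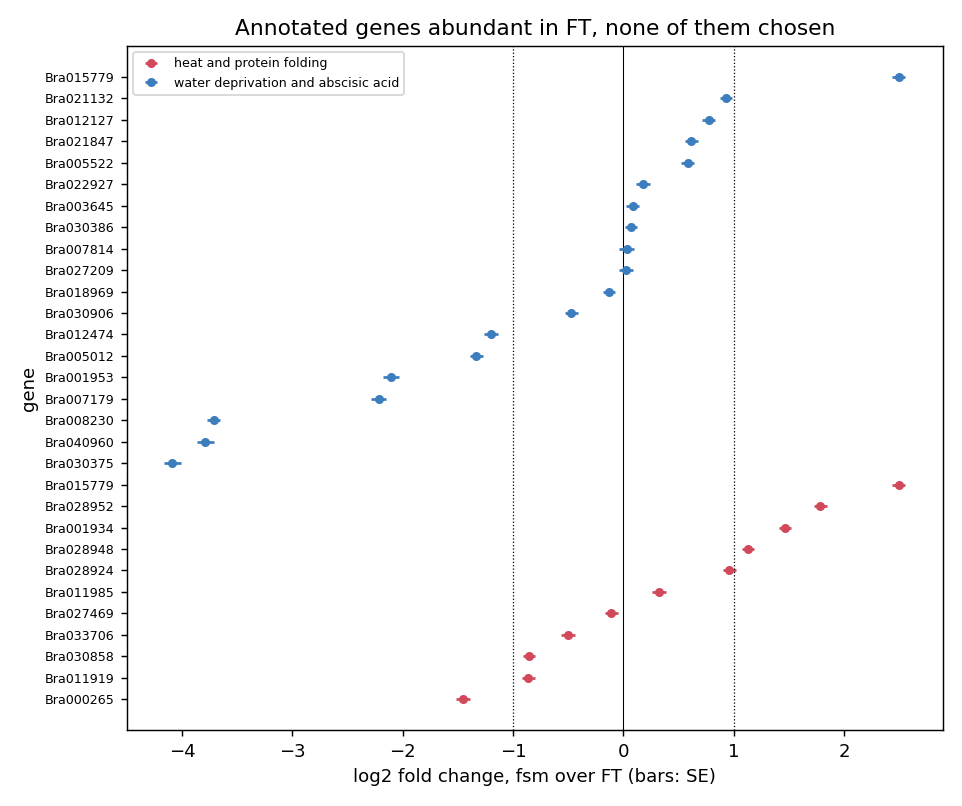
Log2 fold change of *fsm* over ‘FT’ with its standard error (bars) for the 11 heat and protein folding genes (red) and 19 water deprivation and abscisic acid genes (blue) that were not chosen; dotted lines mark the limit of 1 in each direction. Bra015779, in both lists, lies highest at 2.498, and Bra030375 lowest at -4.09.

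Members of the chosen families that the rule left out can also be named from the table of differentially expressed genes, but that table holds only genes past the study's limits on these samples, so their calls are not independent evidence. At the limit of 4 on the log2 scale, which 2.91% of all genes passed upward and 2.34% downward, it named 14 further WRKY genes, of which 12 were higher and 2 lower in *fsm*, and 7 further NAC genes, of which 6 were higher and 1 lower. All 5 further glutathione S-transferases were higher, as were a further galactinol synthase, Bra027922, and 2 chaperone genes, Bra018725 and Bra027431. Of 4 further protein phosphatases 2C, 3 were higher and 1 was lower, namely Bra001589 with 56.7, 57.2 and 55.8 RPKM in ‘FT’ and 1.98, 3.22 and 3.18 RPKM in *fsm*. Of 3 further genes whose description holds DREB, 2 were higher and 1 was lower, Bra033162, described as a DREB2A-interacting protein. Of the HSFs, *HSFA1D* (Bra035507), of the class A1 group that triggers the heat response in *Arabidopsis*, had 1.01, 0.497 and 0.779 RPKM in ‘FT’ and 31.6, 27.3 and 26.2 RPKM in *fsm* and a log2 fold change of 5.28 (SE 0.144). *HSFA6A* (Bra035993) was at 0 reads in all ‘FT’ libraries and at 0.966, 0.415 and 0.715 RPKM in *fsm*. A second chaperonin 60 gene, Bra027431, had 0.631, 0.690 and 0.282 RPKM in ‘FT’ and 37.2, 41.8 and 42.1 RPKM in *fsm*, below the level limit of the rule.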

How the data were processed

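The deposited files gave, per library, the read count, the RPKM and the coverage of each gene. The authors aligned clean reads to the Chinese cabbage reference genome with SOAP2 and counted reads per gene. These reads are described as uniquely matched, but in every library their sum exceeds the totals that the study gives for uniquely matched and for mapped reads, and the reason is not given in the sources used here. The deposited counts are not normalized, and the deposited RPKM divides each count by coding length in kilobases and scales it to the library's read total. The deposited coverage states how much of the coding length had reads, and lies just above 100% for a few genes. Genes not listed in a library were taken as 0. The study's own comparison used DESeq, and its fold changes and p-values were not used.

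Counts of 35616 genes in 6 libraries were fitted in R 4.3.3 with edgeR 4.0.16 (TMM, quasi-likelihood test, Benjamini-Hochberg adjustment, prior count 0.125, no low-count filter, no covariates). DESeq2 1.42.0 served as an alternative. In simulated counts of 35280 genes, 200 genes with a mean above a CPM of 1 were given a log2 change of 5. All 200 were called, and 0 of the others were. The change given was above the log2 limit of 4, and the deposited counts gave 1873 calls. Recovery of smaller changes, of changes below a CPM of 1, or with that many changed genes was not tested. The log2 ratios of chosen genes are ratios of mean RPKM with no pseudocount. Intervals and floors cover counting error only and ignore the choice of the genes by the rule. The p-values measure only the spread between these libraries.

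The members, role groups and lists were chosen with earlier results of these data known. Named genes were every HSF gene, up to 5 genes with the highest *fsm* RPKM of each other role group, the 5 highest in all and the 5 highest with no described function, genes with 0 reads in ‘FT’, the genes nearest each limit, and the list genes with the largest and smallest change; the sixth and later members named in a role group, genes named in the comparison of same-name genes or for their coverage, other called list genes, and family members outside the set were chosen after their values were seen. Gene names come from the study's descriptions. Floral organ identity genes, families in the reference annotation and promoters were not analysed here, because the reference table did not pair these identifiers with names. Alternatives tried were another normalization, test, filter, prior count, limit, set of libraries, or replicate block.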

Additional observations from a re-analysis of the deposited data

How the results depend on the processing

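The count of genes past the limits was 1873 in all and 1651 to 1887 with DESeq2's size factors or test, total counts or edgeR's filter on low counts. It was 1156 (715 higher, 441 lower) with a prior count of 2 and 13069 with a log2 limit of 1, and 1708 to 1818 without one of the 6 libraries. The 5 called heat and protein folding genes and the 8 called water deprivation and abscisic acid genes were the same genes in every fit, and with a log2 limit of 4 these lists gave 0 and 1 calls. An unadjusted edgeR p under 0.05 was found in 10 of the 11 and 15 of the 19 genes, and DESeq2 at the limit of 4 was not run for them. The rule chose 440 genes with a ratio of 1/8 and 155 with 1/32. It chose 372 with a minimum of 25 RPKM, 179 with 100 RPKM, 273 with TMM-rescaled RPKM, 263 with TPM and 219 with the lowest *fsm* against the highest ‘FT’ library, and 254 to 267 with each library left out. A coverage of at least 90% in each *fsm* library, added after seeing the data, left 238. The share of *fsm* reads was 8.47% of summed RPKM and 6.42% without the 5 chosen genes with most reads, and 7.96% to 8.04% with each library left out. The log2 ratios of the 111 chosen genes in role groups that had ‘FT’ reads changed direction in no setting, which the rule nearly fixes. In 5 genes with few ‘FT’ reads, leaving out 1 ‘FT’ library raised the ratio by over 1.5 times. Without ‘FT’ library 1 the log2 ratio was 12.57 in Bra023360 and 12.51 in Bra004474. Without library 2 the log2 ratio was 14.01 in Bra012829 and 13.53 in Bra012828, and without library 4 it was 12.57 in Bra029292. The causes of these shifts were not tested beyond the construction of each setting.

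Replicate numbers 1 and 2 are shared by both lines. The deviations of same-numbered libraries correlated with r of -0.05 and 0.07 across 25839 genes. Whether same-numbered libraries shared any processing is not given in the sources used here. With the replicate block over these 4 libraries 1750 genes were called, against 1579 in the same libraries without it, and the list counts stayed at 5 and 8. Variants for families and promoters were not run. Genes with few ‘FT’ reads have ratios limited by depth.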

Other observations

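Values that belong to no comparison concern gene coverage. In 12 chosen genes the reads covered less than 80% of the coding length on average in *fsm*, and the lowest was Bra032293, a hypothetical protein, at 53.2%. Others were *PRB1* (Bra013123), a pathogenesis-related gene, at 62.1%, a J-domain gene (Bra029736) at 72.8% and a nuclear movement family gene (Bra040837) at 76.2%. The cause of the partial coverage was not tested.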
